A study of Mus musculus with 6 samples.

Results

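Transcripts of 5 annexins and 5 S100 proteins were followed in FAPs, or fibro-adipogenic progenitors, which are connective tissue cells of skeletal muscle marked by the receptor Pdgfra. The 10 genes were set by name (Anxa1, Anxa2, Anxa3, Anxa5, Anxa6, S100a4, S100a6, S100a10, S100a11 and S100a13). Each symbol had 1 row in the deposited table of 54100 genes, and all 10 passed the filter on low counts that left 7207 genes for testing. RNA was sequenced from 3 libraries of FAPs from overloaded plantaris, a calf muscle, and from 3 libraries of FAPs from sham plantaris. Both groups were C57BL/6 mice, were sorted as Pdgfra+ cells and had 1000 cells per tube. No transgene or other agent is named for either group, and neither the age of the mice nor the means or duration of the overload was stated in the labels used here. It is also not stated whether each library came from its own animal or from pooled animals, so the spread between libraries may be technical in part. The comparison asks how these transcripts differ in FAPs when the muscle carries more load.

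Annexins are cytosolic proteins that attach to negatively charged phospholipids of the inner cell membrane when calcium rises, through a repeated core fold that the whole family shares. S100 proteins are small dimers with EF-hand loops that bind calcium and then expose a surface that grips partner proteins, among them the N-terminal ends of several annexins. S100a10 is the exception in that it does not bind calcium and stays in the gripping form, and with annexin A2 it makes a complex at the cell surface that binds plasminogen. In skeletal muscle, annexins are known for sealing torn fibre membranes, and S100a4 is also called fibroblast-specific protein 1.

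S100a4, Anxa2, Anxa5 and S100a6 rose in overloaded FAPs, with fold changes over sham of 5.31, 2.67, 2.28 and 1.63. The other 6 genes, Anxa1, Anxa3, Anxa6, S100a10, S100a11 and S100a13, did not pass the test, and none of the 10 was called lower. Levels are given as CPM, counts per 1e6 counts of tested genes, with library totals corrected by edgeR's TMM factors. Calls rest on edgeR's quasi-likelihood test over all 7207 genes with a Benjamini-Hochberg adjusted p under 0.05. Of all genes tested, 15% were called higher and 14.3% lower, or 29.3% in either direction. Of the members, 4 of 10 (40%) were called higher. The members were chosen with earlier results of these data known, so this share is a description only. By the same test 4 members were higher and 0 lower at an unadjusted p under 0.05, and DESeq2 and limma-voom each called 4 higher and 0 lower. The median log2 fold change was 0.32 over the 10 members and -0.025 over all genes tested.

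Together the 10 genes held 1.27%, 1.49% and 1.23% of all counts in overloaded libraries 1 to 3 and 0.923%, 0.858% and 0.788% in sham libraries 1 to 3. The summed level of the 5 annexins was 4054 ± 266 CPM in overloaded and 2248 ± 349 CPM in sham FAPs (SD, n = 3 each). For the 5 S100 genes it was 10060 ± 1460 CPM in overloaded and 6557 ± 485 CPM in sham FAPs. Anxa2 supplied 47.6% ± 4.58 of the annexin counts in overloaded and 32.0% ± 1.99 in sham libraries. S100a6 supplied 80.4% ± 1.68 of the S100 counts in overloaded and 75.8% ± 5.58 in sham libraries, so the S100 sum follows mostly that gene.

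**Figure D1:**
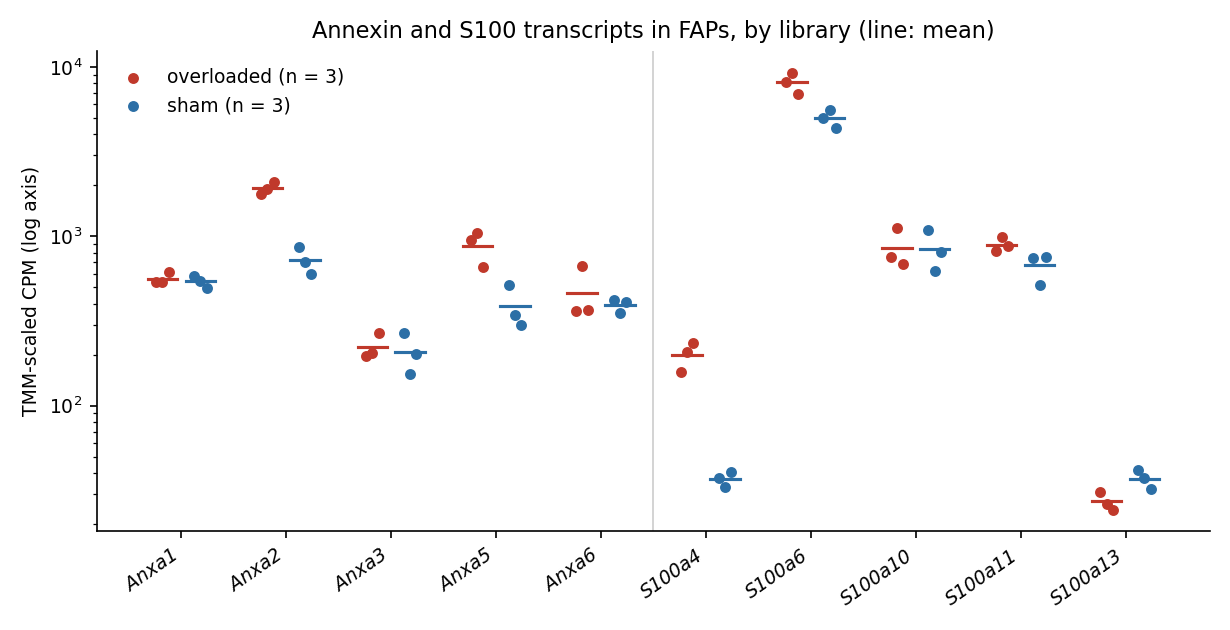
Level of each member in every library, as TMM-scaled CPM on a log axis, with overloaded libraries in red left of sham libraries in blue and a line at each mean. S100a4, Anxa2, Anxa5, S100a6 and S100a11 have all 3 overloaded points above all 3 sham points, and S100a13 has all 3 below. Such separation in either direction was found in 41.5% of all genes tested. S100a10 has nearly the same mean in both groups, 854 CPM in overloaded and 836 CPM in sham.

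Total counts ranged from 850857 to 1124210 in overloaded and from 500402 to 754456 in sham libraries (exact two-sided permutation p = 0.1, the smallest that 3 against 3 libraries can give). Pdgfra, the receptor used for sorting, was at 607, 416 and 759 CPM in overloaded and at 769, 780 and 1021 CPM in sham libraries, and was not called (edgeR adjusted p = 0.0624). All 9 FAP markers were detected, with a summed level of 65100 to 72800 CPM in overloaded and 44400 to 51400 CPM in sham libraries. The sum follows the collagen genes Col3a1 and Col1a1, which were called higher, while Dcn, Cd34, Pi16 and Dpp4 were called lower. All 8 endothelial markers were detected, with sums of 33.5 to 90.3 CPM in overloaded and 122 to 228 CPM in sham libraries. Tek, at 27.0 ± 4.18 CPM in overloaded and 119 ± 11.9 CPM in sham FAPs, carried that difference, and the other 7 overlapped between the groups. Of 10 leukocyte markers 7 were detected and Adgre1, Lyz2 and S100a9 were at 0 in every library, with sums of 1.92 to 20.1 CPM in overloaded and 15.8 to 27.0 CPM in sham libraries. The 6 satellite cell markers summed to 95.2 to 133 CPM in overloaded and 41.5 to 60.1 CPM in sham libraries, nearly all from Vcam1, with Myod1 at 0. The 4 tenocyte markers summed to 29.8 to 55.5 CPM in overloaded and 25.6 to 29.0 CPM in sham libraries. Pericyte, Schwann cell, adipocyte and erythroid markers overlapped between the groups. The 8 muscle fibre markers summed to 39.3 to 61.4 CPM in overloaded and 64.4 to 127 CPM in sham libraries. As a measure of background, counts of olfactory and vomeronasal receptors, genes of sensory neurons, stood at 308, 1092 and 232 per 1e6 of the library total in overloaded and at 1445, 1819 and 781 in sham libraries. Their part in the results was not tested beyond the alternative fit that takes the olfactory share as a covariate. In that fit the log2 fold changes were 2.36 for S100a4, 1.53 for Anxa2, 1.53 for Anxa5 and 0.99 for S100a6, and all 4 remained called. Sorted cells were measured in bulk, so a change in the share of a kind of cell and a change in RNA per cell cannot be told apart.

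Anxa2 and Anxa5 were the annexins that rose. Annexin A2 binds membranes and actin and anchors S100a10 at the plasma membrane. The gene lies on the plus strand of chromosome 9, 69453620 to 69491795 (GRCm38, as are all positions given). Its level was 1778, 1895 and 2104 CPM in overloaded libraries 1 to 3 and 865, 705 and 596 CPM in sham libraries 1 to 3. Every overloaded library stood above every sham library, and the gap between the groups was wider than the spread within either. The means were 1926 ± 165 CPM in overloaded and 722 ± 135 CPM in sham FAPs (SD, n = 3 each). The log2 fold change was 1.42, with SE (its standard error) at 0.20 and an adjusted p of 2.78e-06 by edgeR, and it lay at percentile 95.2 of all genes tested. Of its exonic bases, 98 face the antisense gene Gm16144, which held 0 counts.

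Anxa5 also rose, and the intervals of the fold changes overlapped (2.01 to 3.54 for Anxa2, 1.66 to 3.14 for Anxa5). Annexin A5 coats exposed phosphatidylserine and is widely used as a label of dying cells. The gene lies on the minus strand of chromosome 3, 36448923 to 36475894. Its level was 945, 1043 and 655 CPM in overloaded libraries and 516, 342 and 297 CPM in sham libraries. The groups did not overlap, but the lowest overloaded library, library 3, was closer to the highest sham library than to the other overloaded ones. The means were 881 ± 202 CPM in overloaded and 385 ± 115 CPM in sham FAPs. Its log2 fold change was 1.19 (SE 0.22), with an adjusted p of 0.000162 by edgeR.

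Anxa1, Anxa3 and Anxa6 did not pass the test. Annexin A1 is the anti-inflammatory ligand of formyl peptide receptors (chromosome 19, 20373428 to 20390944, minus strand). Its level was 536, 534 and 613 CPM in overloaded and 580, 546 and 495 CPM in sham libraries. The groups overlapped and their spread was small, with a coefficient of variation of 8.04% in overloaded and 7.89% in sham FAPs. The log2 fold change of Anxa1 was 0.05 with a 95% interval of -0.34 to 0.45 (edgeR adjusted p = 0.871), and the interval ends at a fold of 1.37.

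Anxa3 encodes a further membrane-binding annexin (chromosome 5, 96793339 to 96845966, plus strand). It stood at 196, 203 and 267 CPM in overloaded and at 268, 154 and 202 CPM in sham libraries. The values of the groups interleaved, and the log2 fold change was 0.09 with a 95% interval of -0.37 to 0.55 (edgeR adjusted p = 0.817). Anxa3 shares 112 exonic bases on the same strand with Gm42603, which held 5 counts. A stretch of 50 bases of its transcripts matches Fbxl18, which held 186 counts, at 96.0% identity. Annexin A6 is the largest annexin, made of a doubled core (chromosome 11, 54979108 to 55033445, minus strand). Anxa6 was at 361, 666 and 364 CPM in overloaded and at 420, 350 and 409 CPM in sham libraries. Overloaded library 2 stood apart from the other overloaded libraries, which lay within the sham range. The log2 fold change of Anxa6 was 0.23 with a 95% interval of -0.22 to 0.69 (edgeR adjusted p = 0.472), and it was -0.10 without overloaded replicate 2.

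S100a4 rose the most of the 10 genes. S100a4 binds non-muscle myosin IIA and is linked to the movement of fibroblasts and tumour cells. The gene lies on the plus strand of chromosome 3, 90603771 to 90606045. Its level was 157, 206 and 234 CPM in overloaded and 37.2, 33.2 and 40.4 CPM in sham libraries. The counts behind these levels were 163, 164 and 202 in overloaded and 26, 16 and 30 in sham libraries. The groups were far apart. The sham values lay close together, but with 72 sham counts in all their spread is poorly known. The means were 199 ± 38.9 CPM in overloaded and 36.9 ± 3.60 CPM in sham FAPs. Its log2 fold change was 2.41 (SE 0.26), with an adjusted p of 2.54e-08 by edgeR. The fold change of 5.31 had a 95% interval of 3.67 to 7.69, and the gene was at rank 50 of the 7207 genes by adjusted p. Of its 584 exonic bases, 302 are shared on the same strand with the predicted gene Gm42674, which held 0 counts, so the counts of S100a4 are uncertain to that extent in both groups.

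S100a6 had the most counts of the 10 genes and also rose. S100a6, or calcyclin, is a marker of growing cells and binds the ubiquitin ligase adaptor Cacybp. The gene lies on the plus strand of chromosome 3, 90612882 to 90624181. Its level was 8135, 9251 and 6876 CPM in overloaded and 4968, 5594 and 4366 CPM in sham libraries. All overloaded libraries were above all sham libraries. The means were 8087 ± 1188 CPM in overloaded and 4976 ± 614 CPM in sham FAPs. On the log2 scale the fold change was 0.70 (SE 0.19), with an adjusted p of 0.00601 by edgeR. Its adjusted p ranged from 0.00122 to 0.0497 over 16 alternative analyses, and the highest came from edgeR without sham replicate 3.

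S100a10, S100a11 and S100a13 did not pass the test. S100a10, the partner of annexin A2, lies on the plus strand of chromosome 3, 93555080 to 93564643. Its level was 753, 1124 and 684 CPM in overloaded and 1082, 622 and 803 CPM in sham libraries. The groups overlapped almost fully, with the highest library of each group near the other. Its log2 fold change was 0.03 with a 95% interval of -0.43 to 0.48 (edgeR adjusted p = 0.946), and the means were 854 ± 236 CPM in overloaded and 836 ± 232 CPM in sham FAPs.

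S100a11, a partner of annexin A1, lies on the plus strand of chromosome 3, 93520488 to 93526287. It stood at 815, 987 and 876 CPM in overloaded and at 742, 516 and 756 CPM in sham libraries. All overloaded libraries were above all sham libraries, but the gap between the nearest libraries was small. The log2 fold change of S100a11 was 0.41 with a 95% interval of -0.0029 to 0.82 (edgeR adjusted p = 0.130). A stretch of 297 bases of its transcripts matches the processed pseudogenes Gm7665 and Gm12854 at 98.7% and 99.0% identity. These pseudogenes held 3 and 0 counts, and reads that map equally well to them and to S100a11 may have been lost or misplaced.

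S100a13, which takes part in the release of Fgf1 without a signal peptide, lies on the plus strand of chromosome 3, 90514435 to 90524581. It was the least counted of the 10 genes, with 32, 21 and 21 counts in overloaded and 29, 18 and 24 counts in sham libraries. In CPM it was at 30.8, 26.3 and 24.3 in overloaded and at 41.5, 37.3 and 32.3 in sham libraries. All overloaded values were below all sham values, yet the log2 fold change of -0.44 had a 95% interval of -1.12 to 0.24 (edgeR adjusted p = 0.351). At these counts a change of this size was not detectable. Library ranges were apart in 6 of 10 members, S100a11 and S100a13 among them, against 41.5% of all genes tested.

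**Figure D2:**
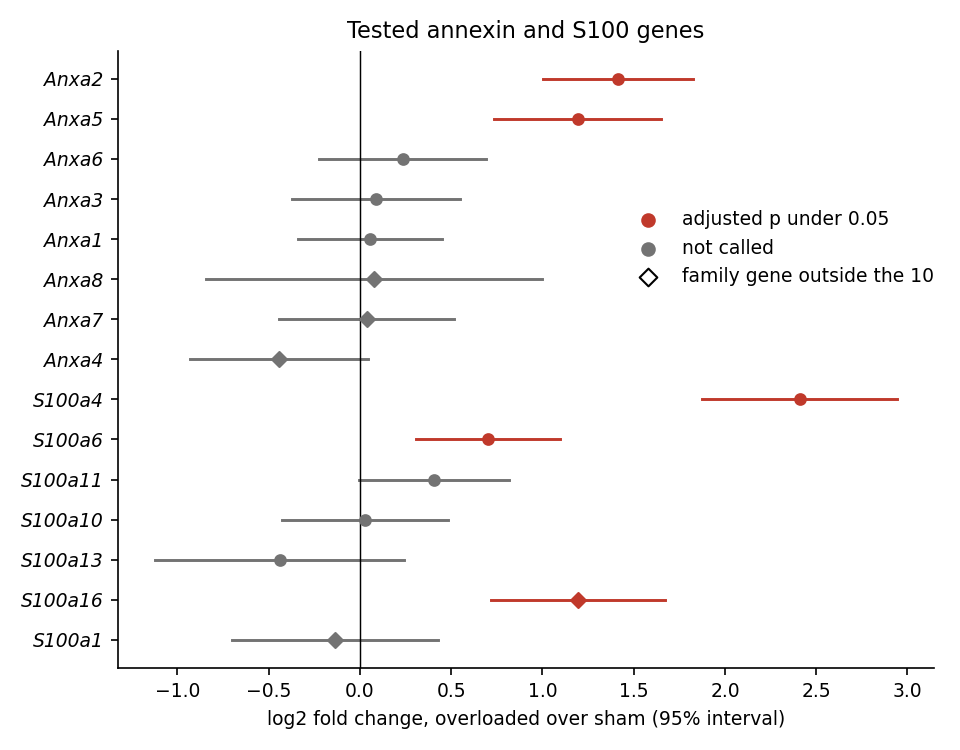
Log2 fold change of overloaded over sham FAPs with its 95% interval for every annexin and S100 gene that could be tested, circles for the 10 members and diamonds for other genes of both families. Red marks an adjusted p under 0.05 in edgeR, reached by Anxa2, Anxa5, S100a4, S100a6 and S100a16, and the intervals of the other 10 genes include 0.

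Annexin A2 and S100a10 proteins work as a complex, so their transcripts were also set against each other inside each library, where no scaling between libraries is needed. There were 0.423, 0.593 and 0.325 counts of S100a10 per count of Anxa2 in overloaded libraries and 1.25, 0.882 and 1.35 in sham libraries. S100a10 had fewer counts than Anxa2 in every overloaded library, and more in sham libraries 1 and 3. The mean ratio was 0.447 ± 0.136 in overloaded and 1.16 ± 0.246 in sham FAPs (exact two-sided permutation p = 0.1, the smallest possible with n = 3 each). The use of molecular identifiers and the handling of multi-mapping reads are not stated, so the ratio does not give molecules of each. As S100a10 was not called, the lower ratio restates the rise of Anxa2 given above, and its test is no separate result.

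**Figure D3:**
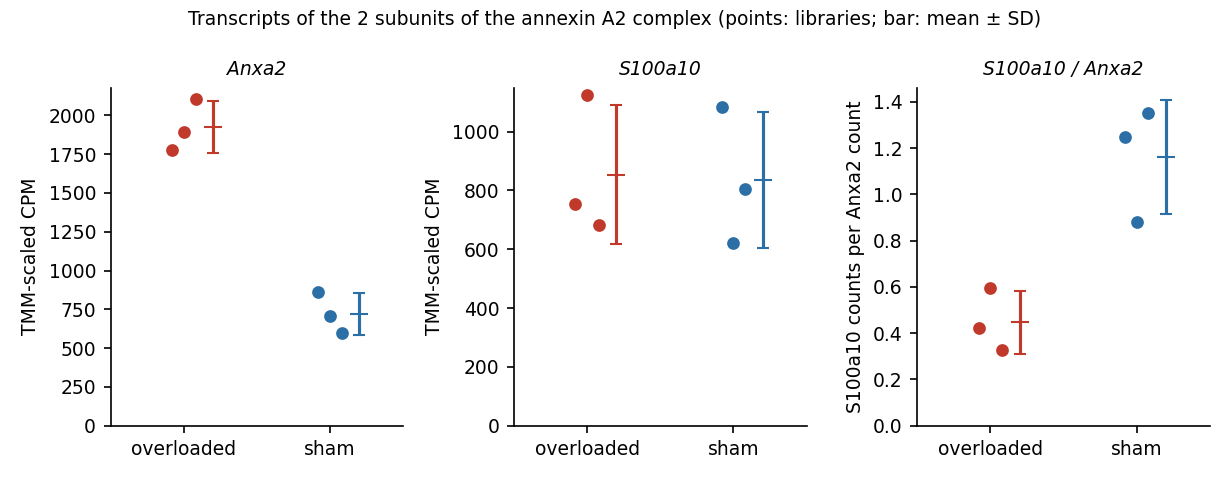
Levels of Anxa2 and S100a10 in TMM-scaled CPM and the counts of S100a10 per count of Anxa2, one point per library, with mean and SD beside the points. Anxa2 is at 1778 to 2104 CPM in overloaded and 596 to 865 CPM in sham libraries, S100a10 overlaps between the groups, and the ratio is 0.325 to 0.593 in overloaded and 0.882 to 1.35 in sham libraries.

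To show the regions upstream of genes that differed in response, 250 bases before the start site are printed for S100a4 and Anxa2, which rose, and for S100a11, which did not pass the test and holds the same motif as Anxa2. The sequences are RefSeq's for GRCm38.p6, read 5′ to 3′ on the gene's plus strand, with capitals for the AP-1 motif TGANTCA. The regions are chr3:90603520-90603769, chr9:69453433-69453682 and chr3:93520246-93520495. Start sites here are RefSeq's, while the gene positions given above are GENCODE's. The Anxa2 and S100a11 regions therefore reach past the gene starts given above.
S100a4: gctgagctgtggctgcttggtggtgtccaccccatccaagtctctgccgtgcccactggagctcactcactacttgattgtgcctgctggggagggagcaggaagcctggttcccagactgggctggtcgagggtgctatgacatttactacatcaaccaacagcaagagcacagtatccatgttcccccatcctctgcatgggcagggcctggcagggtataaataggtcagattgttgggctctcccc
Anxa2: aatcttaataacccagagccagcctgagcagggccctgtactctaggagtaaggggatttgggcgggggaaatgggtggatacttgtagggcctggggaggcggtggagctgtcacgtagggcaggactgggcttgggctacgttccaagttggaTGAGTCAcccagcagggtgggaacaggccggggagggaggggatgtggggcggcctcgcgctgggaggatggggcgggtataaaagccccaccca
S100a11: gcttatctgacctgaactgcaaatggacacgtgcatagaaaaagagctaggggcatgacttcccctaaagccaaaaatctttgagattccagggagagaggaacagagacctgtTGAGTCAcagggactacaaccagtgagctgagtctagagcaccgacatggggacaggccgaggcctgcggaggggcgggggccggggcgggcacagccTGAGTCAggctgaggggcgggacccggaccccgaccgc

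The promoter table held 7 of the 10 members, and the windows searched ran from 250 bases before to 50 after the start, on both strands, with a palindromic match counted once and matches of different motifs free to overlap. Anxa3, Anxa6 and S100a10 had no entry. The AP-1 motif TGANTCA was found in the windows of Anxa2, 95 bases before the start, and of S100a11, 136 and 38 bases before it, against 7.81% of all 32851 windows. The TEAD motif CATTCC was found for Anxa1, against 14.7% of all windows. The CArG box of SRF was found for Anxa5, after the start site, against 1.63% of all windows. The NF-kappaB pattern, GGG and CC with any 5 bases between them, was found in all 7 windows but also in 50.8% of all windows. The AP-1, TEAD and CArG motifs were not found in the windows of S100a4, S100a6 and S100a13, which says only that these letters are not in these windows. The AP-1 motif is thus present before 1 gene that rose and 1 that did not pass the test, and a match describes sequence only.

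All 5 S100 members lie on chromosome 3, where most genes of the family stand close together. Along it 12 S100a genes spanned 184.7 kb, and S100a11 and S100a10 followed after a gap of 2.82 Mb in a stretch of 44.2 kb. Neighbours in the larger group had different values. S100a1 and S100a13 stand back to back at its start with log2 fold changes of -0.14 and -0.44, neither called. S100a16, S100a4 and S100a6 further along were called higher, at 1.19, 2.41 and 0.70. Of the 14 genes, 7 had 10 counts or fewer over all 6 libraries, among them S100a5 between S100a4 and S100a6, with 2 counts in overloaded and 0 in sham libraries.

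**Figure D4:**
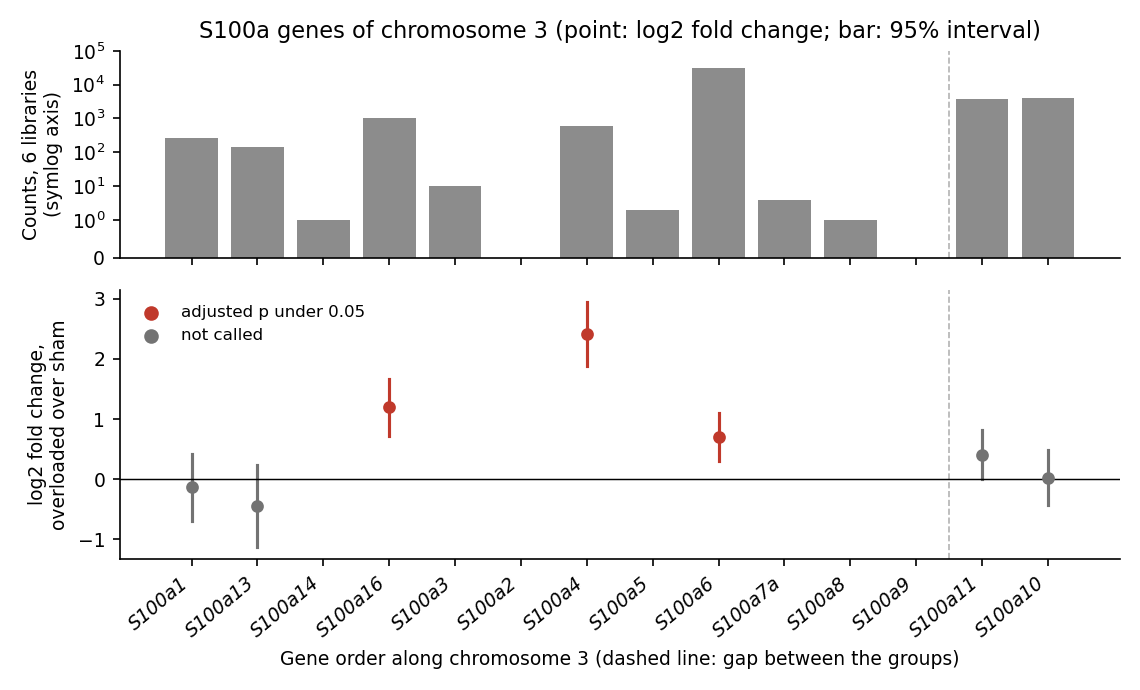
S100a genes in their order along chromosome 3, with the counts over all 6 libraries above (symmetric log axis) and the log2 fold change of overloaded over sham FAPs with its 95% interval below. S100a16, S100a4 and S100a6 were called higher (red) at 1.19, 2.41 and 0.70, and silent or barely counted genes with no point lie between them.

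Of the rest of both families, S100a16 was called higher. S100a16 is a widely expressed S100 protein with a single working EF-hand loop. It stood at 296 ± 74.2 CPM in overloaded and 128.5 ± 27.6 CPM in sham FAPs, with all overloaded libraries above all sham libraries. The log2 fold change was 1.19 (SE 0.23), with an adjusted p of 0.00023 by edgeR. S100a1, best known from heart and muscle fibres, was at 55.0 ± 7.64 CPM in overloaded and 60.2 ± 5.14 CPM in sham FAPs (edgeR adjusted p = 0.760). Of 11 other S100 genes, 8 had any counts and 2 could be tested. S100a3 had 5 counts in each group. The neutrophil genes S100a8 and S100a9 had 0 and 0 counts in overloaded and 1 and 0 in sham libraries. Of 7 other annexins, 3 could be tested and none was called by edgeR, with 0 at an unadjusted p under 0.05 and 0 by DESeq2 or limma-voom. Anxa4 was at 102.5 ± 21.5 CPM in overloaded and 138 ± 24.2 CPM in sham FAPs (log2 fold change -0.44, edgeR adjusted p = 0.170). Anxa7 was at 128 ± 28.3 CPM in overloaded and 125 ± 10.96 CPM in sham FAPs (edgeR adjusted p = 0.933), and Anxa8 at 17.3 ± 6.18 CPM in overloaded and 16.5 ± 3.77 CPM in sham FAPs (edgeR adjusted p = 0.926). Anxa11, a broadly expressed annexin in other tissues, had 4 counts in overloaded and 0 in sham libraries.

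Levels were compared between genes after division by the exonic length, as CPM per kilobase (kb) of exon. The libraries follow a CEL-Seq2 type of protocol that reads transcripts near their 3′ end, where counts need not scale with length, so the order is one of read density. In overloaded FAPs S100a6 led at 5916 ± 869, followed by S100a11 at 1746 ± 171 and S100a10 at 704 ± 195 CPM per kb. Anxa2 (516), Anxa5 (496) and S100a4 (340) came next and overlapped as neighbours. Anxa1 (193) and Anxa6 (158) overlapped too, and Anxa3 (61.0) and S100a13 (37.95) were last. In sham FAPs the leading 3 genes were the same, at 3640 ± 449, 1314 ± 263 and 690 ± 191 CPM per kb. Anxa5 (217), Anxa2 (194) and Anxa1 (186) followed and overlapped as neighbours, then Anxa6 (134). S100a4 (63.2), Anxa3 (57.0) and S100a13 (51.8) were last in sham FAPs and also overlapped. By this density S100a4 was thus at rank 6 in overloaded and rank 8 in sham FAPs, a description of the same rise as its fold change. Without division by length the order differed. In overloaded FAPs Anxa2 (1926 CPM) then came above S100a11 (892), Anxa5 (881) and S100a10 (854). In sham FAPs S100a10 (836 CPM) came above Anxa2 (722) and S100a11 (671). S100a4 then stood below Anxa3 in both groups, at 199 against 222 CPM in overloaded and 36.9 against 208 CPM in sham FAPs.

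For the annexin and the S100 gene with the most counts, the 3 genes closest in profile were found by the Euclidean distance of log2 CPM over the 6 libraries after centring each gene on its mean. Vim (distance 0.195), Arpc1b (0.253), a subunit of the actin-branching Arp2/3 complex, and Pdpn (0.258), podoplanin, were nearest to Anxa2 among 7206 other genes. Vim, which encodes the intermediate filament vimentin, averaged 4756 ± 551 CPM in overloaded and 1649 ± 252 CPM in sham FAPs. As Vim was picked for its nearness to Anxa2 in these same libraries, that difference is no separate result. Ufl1 (0.186), a ligase of the UFM1 protein tag, Tsr2 (0.189), a ribosome assembly factor, and Polr1d (0.195), a subunit of RNA polymerases I and III, were nearest to S100a6. No member was among the 3 nearest genes of either. Anxa5 was the member nearest to Anxa2 (distance 0.741, rank 272), and S100a10 was farther from it (distance 1.87, rank 3150).

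Known partners and receptors of these proteins were called in both directions, as were genes at large. Of 28 such genes, 17 could be tested, of which 4 were called higher, 2 lower and 11 not. That was 23.5% higher and 11.8% lower, against 15% and 14.3% of all genes tested. The median log2 fold change was 0.18. Myh9, the non-muscle myosin IIA heavy chain that S100a4 binds, rose to 887 ± 236 CPM in overloaded, against 199 ± 45.2 CPM in sham FAPs (log2 fold change 2.16, edgeR adjusted p = 1.87e-08). Plaur, the urokinase receptor, rose by a log2 fold change of 1.59, Pla2g4a, the cytosolic phospholipase A2 that annexin A1 and S100a10 can inhibit, by 0.87 and Cacybp by 0.77 (edgeR adjusted p = 0.00325, 0.00889 and 0.0189). Plaur rests on few and uneven sham counts, 21, 4 and 6 in sham libraries, against 49, 45 and 36 in overloaded libraries. Fgf1, the growth factor released with S100a13, fell to 21.7 ± 6.92 CPM in overloaded, against 54.2 ± 8.09 CPM in sham FAPs (log2 fold change -1.33, edgeR adjusted p = 0.00293). Ahnak2, a giant scaffold protein, fell by 1.96 on the log2 scale (edgeR adjusted p = 1.65e-06).

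Ahnak, the related scaffold that the annexin A2 and S100a10 complex binds, was at 1027 ± 76.4 CPM in overloaded and 1377 ± 158 CPM in sham FAPs and was not called (edgeR adjusted p = 0.0985). Some receptors had too few counts to test. Fpr2, the receptor of annexin A1, had 11 counts in overloaded and 7 in sham libraries, and Ager, the receptor for advanced glycation end products to which S100 proteins bind, had 2 in overloaded and 7 in sham libraries. Plg, the plasminogen gene, had 0 counts in either group. The list had 4 lower genes without overloaded replicate 2 and 5 with scaling by library size only, and 2 higher and 1 lower with the background share as covariate.

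Genes of membrane repair, not all of which bind calcium, and other calcium-binding genes were read from the same fit. Of 21 genes for membrane repair, such as calpains and the ESCRT machinery that seals membranes, 16 could be tested and edgeR called none. Among all genes tested, 29.3% were called. At an unadjusted p under 0.05, 3 of the list were higher and 1 lower, and DESeq2 and limma-voom each called 0. Without overloaded replicate 1, 1 gene of this list was called higher. Their median log2 fold change was 0.10, and dysferlin (Dysf) and Trim72, repair proteins of muscle fibres named here after their values were seen, had 2 and 0 counts in overloaded and 2 and 1 in sham libraries.

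Of 23 other intracellular EF-hand genes, listed apart from those of the secretory pathway described next, 20 could be tested. Of these, 3 (15%) were called higher and 2 (10%) lower, against 15% and 14.3% of all genes tested. The median log2 fold change was 0.15. Capns1 and Pdcd6 are also on the membrane repair list. Calm3, a calmodulin gene, rose to 72.6 ± 8.72 CPM in overloaded, against 36.6 ± 5.33 CPM in sham FAPs (edgeR adjusted p = 0.0103). Calm2, which encodes the same protein, was at 631 ± 127 CPM in overloaded and 602 ± 98.8 CPM in sham FAPs and was not called (edgeR adjusted p = 0.837). Ncs1, neuronal calcium sensor 1, rose by a log2 fold change of 1.93 and Efhd2, an actin-binding EF-hand protein, by 1.33. Efhd1, its mitochondrial relative, fell by 2.42 on the log2 scale and Stim1, the calcium sensor of the endoplasmic reticulum, by 0.91 (edgeR adjusted p = 5.59e-07 and 0.0211). This list had 5 higher genes without overloaded replicate 1 and 1 lower gene without overloaded replicate 3 or without sham replicate 3.

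Of 8 EF-hand genes of the secretory pathway and matrix, 6 were called higher and 1 lower, with a median log2 fold change of 0.90. These calls were 75% and 12.5% of the list, against 15% and 14.3% of all genes tested. This list too was chosen with earlier results of these data known, so its shares are a description only. Sparc, a collagen-binding matricellular protein, rose to 12090 ± 1109 CPM in overloaded, against 6496 ± 372 CPM in sham FAPs. Rcn3, a reticulocalbin of the endoplasmic reticulum, rose by a log2 fold change of 1.31, Nucb2 by 1.18 and Calu, calumenin, by 1.12. Sdf4 was the gene called lower, at 103.5 ± 10.5 CPM in overloaded and 189 ± 54.0 CPM in sham FAPs (edgeR adjusted p = 0.00621). Sdf4 was not called without sham replicate 2, and with the background share as covariate the list had 3 higher and 0 lower genes. Exons of Calu and Rcn3 overlap those of a gene on the opposite strand, and the counting of strand is not stated.

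Of 15 genes with the C2 domain, the other common calcium-dependent membrane module, 9 could be tested. Of these, 1 (11.1%) was called higher and 1 (11.1%) lower, against 15% and 14.3% of all genes tested. The median log2 fold change was -0.14. The gene called higher was Pla2g4a, which is also on the partner list. Without overloaded replicate 1, and with the background share as covariate, the list had 0 called genes in either direction, and without sham replicate 3 it had 0 called lower.

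**Figure D5:**
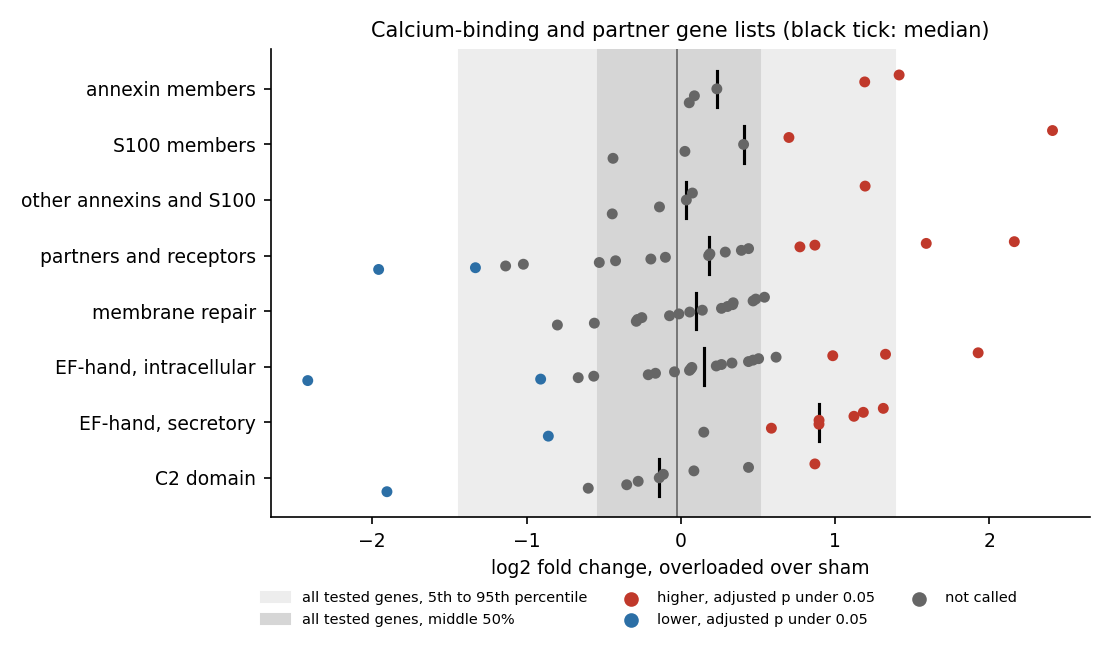
Log2 fold change of overloaded over sham FAPs for the tested genes of each list, with the list's median as a black tick, over grey bands for the spread of all 7207 genes tested (5th to 95th percentile, -1.44 to 1.39, and the middle 50%, -0.54 to 0.51). Red points were called higher and blue points lower. The secretory EF-hand genes have a median of 0.90, and no membrane repair gene was called.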

How the data were processed

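The values deposited by the authors were unnormalised whole-number counts for each gene. DESeq2 1.28.1, featureCounts 2.0.1, HISAT2 2.2.1, Trim Galore 0.6.6 and build GRCm38 are named in the submitters' processing notes. No source used here gives the strand setting, the handling of multi-mapping reads or the use of molecular identifiers. Without collapsed identifiers reads are not independent molecules.

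Counts were tested with edgeR 4.0.16 in R 4.3.3 (filterByExpr, minimum count 10 and minimum total 15, TMM, robust quasi-likelihood F test). SE is the size of the log2 fold change divided by the square root of F. The biological coefficient of variation was 21.2%. Libraries of 1 group differed by more than sampling noise (chi-square per degree of freedom 4.17 to 7.97). Alternatives used DESeq2 1.42.0, limma 3.58.1, other scalings and filters, thinning, a replicate block, a background covariate and each library left out. Positions and exon lengths are from GENCODE M21, which held all 54100 identifiers, and near copies of member transcripts were sought with BLAST at 95% identity over at least 50 bases.

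Members and lists were chosen with earlier results of these data known. The rule for naming took all members, other annexins and S100 genes with at least 10 counts, up to 5 called genes per list in order of adjusted p, and Ahnak, Calm2, Calm3, Cacybp, Fgf1, Fpr2 and Ager. Some genes that the rule takes are not reported here. Genes with fewer counts are named after their values were seen.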

Additional observations from a re-analysis of the deposited data

How the results depend on the processing

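Over 16 alternatives 4 members were called higher and 0 lower each time, and Anxa2, Anxa5, S100a4 and S100a6 kept their calls in every alternative run. Their log2 fold changes ranged from 1.31 to 1.60 for Anxa2, 1.05 to 1.53 for Anxa5, 2.30 to 2.59 for S100a4 and 0.61 to 0.99 for S100a6. Scaling by library size only moved the median of all genes by -0.068. The overloaded minus sham difference in the log2 ratio of S100a10 to Anxa2 counts was -1.40, and -1.62 to -1.19 without single libraries. Genes that were not called changed sign in places. With scaling by library size only, Anxa1 was at -0.0094, S100a10 at -0.040 and Anxa7 at -0.033. Without single libraries, Anxa3 ranged from -0.075 to 0.35, Anxa6 from -0.10 to 0.42, S100a10 from -0.20 to 0.29, Anxa7 from -0.11 to 0.20 and Anxa8 from -0.19 to 0.31. With the background covariate Anxa3 was at -0.10 and Anxa7 at -0.15, and after thinning Anxa7 was at -0.087, or -0.11 with the block. That covariate gave 498 higher and 449 lower genes in all, 2 and 1 on the partner list, 3 and 0 on the secretory EF-hand list and 0 and 0 on the C2 list. The partner list had 5 lower genes with scaling by library size only, the intracellular EF-hand list 1 lower without the count filter and the C2 list 0 lower at a minimum count of 30. Without single libraries, lower genes numbered 2 to 4 for partners, 1 to 3 for intracellular EF-hand, 0 to 1 for secretory EF-hand and 0 to 1 for C2 genes. Higher genes numbered 0 to 1 for membrane repair, 2 to 5 for intracellular EF-hand and 0 to 1 for C2 genes. S100a13 was too low to test at a minimum count of 30, and Anxa8 in 3 of the alternatives. The labels state no pairing of the replicate numbers. Deviations of same-numbered libraries correlated at 0.008 to 0.015 and those of other pairs at -0.025 to 0.011. Values this near to each other cannot decide whether libraries were paired. With the replicate numbers as a block, 4 members were again called higher (S100a6 0.70, edgeR adjusted p = 0.0123). The motif search in upstream bases only used a shorter window, so shares could only fall or stay equal. They were 6.75% for AP-1, 12.6% for TEAD, 1.47% for the CArG box and 45.8% for NF-kappaB. The CArG box was then found in 0 members, as the match of Anxa5 lies after the start. The cause of the shifts in fold changes and calls was not tested. Genes with few counts, such as Fpr2 and Ager, did not pass the count filter and were not tested.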
